A study of Mus musculus with 6 samples.

Results

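The mitochondrial genome of the mouse encodes 37 RNAs, and all 37 were rows of the deposited table, which holds 40413 genes. They were 13 mRNAs, 22 tRNAs and 2 rRNAs. Only the rRNAs, mt-Rnr1 and mt-Rnr2, carry the prefix mt- in that table, so the members were found as the symbols that RefSeq (GRCm38.p6) places on the mitochondrial chromosome, where the mRNAs have names such as ND1 and COX1 and the tRNAs names such as TrnG. RNA was sequenced from 3 libraries of N2A-A5 cells differentiated for 96 h, in blasticidin-free medium with 10 µM retinoic acid and 1% fetal bovine serum, and from 3 libraries of undifferentiated N2A-A5 cells (0 h) in 10% serum with blasticidin. N2A (Neuro-2a) is a mouse neuroblastoma line, and N2A-A5, which the labels call acceptor cells, has no other treatment in the labels. The labels number the 3 libraries of a group without saying whether they came from separate cultures, so the p-values measure the spread between these libraries, which may be technical. Retinoic acid, serum, blasticidin and time in culture changed together and cannot be told apart. Hand2, a transcription factor that marks sympathetic neuroblasts, averaged 311 CPM at 96 h and 381 CPM at 0 h.

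Mitochondrial DNA is a small circle transcribed from both strands into long precursors by a dedicated RNA polymerase (POLRMT) with the factors TFAM and TFB2M. The tRNA genes lie between most of the other genes, and enzymes cut the tRNAs out of the precursor, which frees the mRNAs and rRNAs on either side. The mRNAs encode core subunits of respiratory complexes I, III and IV and of ATP synthase (complex V), and the rRNAs and tRNAs serve the mitochondrial ribosome that translates them.

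All classes of mitochondrial RNA took a larger part of the libraries at 96 h than at 0 h, and the tRNA genes by far the most. The 37 genes together took 11.9%, 11.4% and 10.97% of counts in the 96 h libraries (replicates 1, 2 and 3), against 10.6%, 9.02% and 8.76% in the 0 h libraries. The mRNA share was 1.90% ± 0.09 at 96 h and 1.38% ± 0.19 at 0 h (every mean is given ± SD over the 3 libraries of a group). Counts of the tRNA genes were 0.0943%, 0.124% and 0.0951% of the 96 h libraries, against 0.0235%, 0.0283% and 0.0316% of the 0 h libraries, a 3.76-fold higher mean. The rRNA share was 9.77%, 9.40% and 9.03% at 96 h, against 8.96%, 7.76% and 7.43% at 0 h. The lowest 96 h library stood above the highest 0 h library in every class, by 9.03% against 8.96% for rRNA. With 3 libraries against 3 an exact permutation test cannot go below p = 0.1. The libraries held 16833700 to 19000400 counts at 96 h and 17628900 to 20932400 counts at 0 h. These are shares of bulk libraries, so more mitochondrial RNA per cell and less of other RNA cannot be told apart. The row Gm26917 held 30.5% ± 1.6 of a 96 h library and 20.2% ± 2.2 of a 0 h library. Taken over all counts less this row, the log2 ratio of the mean shares was 0.67 for mRNA, 2.11 for tRNA and 0.43 for rRNA. Over all counts these ratios were 0.47, 1.91 and 0.22. Because the row held more of the 96 h libraries, leaving it out had to raise every ratio by nearly the same amount. The larger ratios are therefore no check on the classes.

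**Figure D1:**
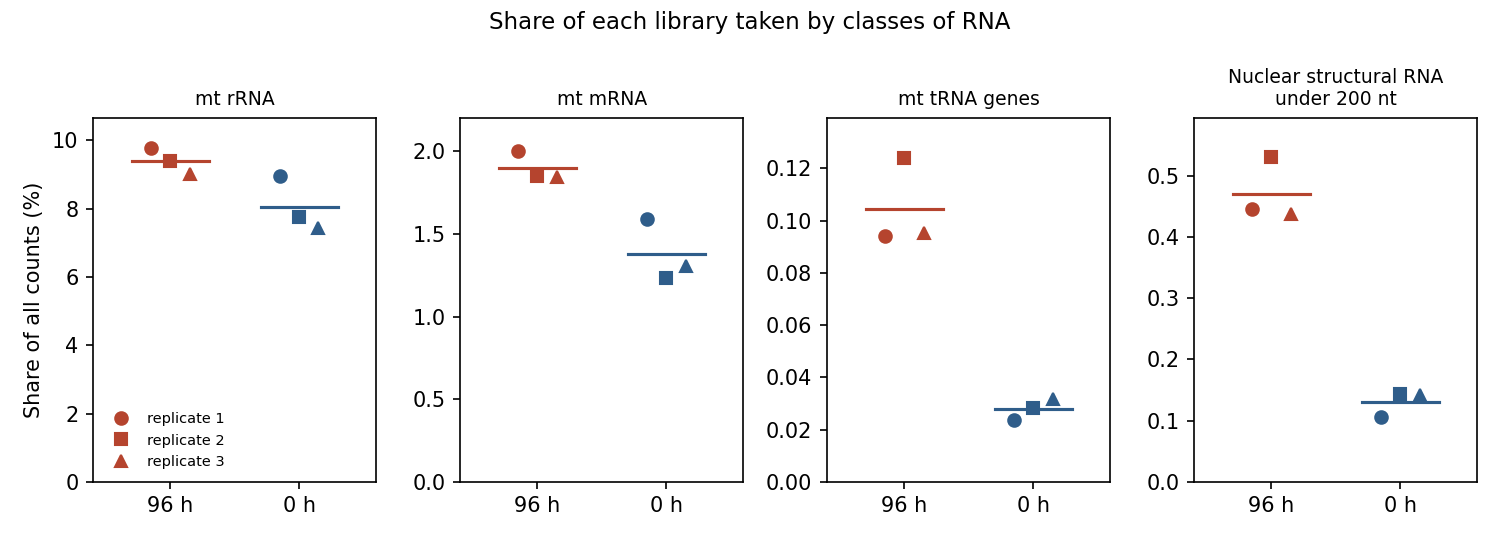
Share of all counts (%) taken by mitochondrial rRNA, mRNA and tRNA genes and by short nuclear structural RNA in each library, 96 h left of 0 h, with each axis starting at 0. Points are libraries, their shape gives the replicate number, and lines are means of 3. In all 4 panels the 96 h libraries lie above the 0 h libraries, with the widest gaps in the panels of tRNA and short nuclear RNA.

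Levels below are in CPM, counts divided by library sizes scaled with TMM factors and put on a common scale, and each gene was tested with edgeR's quasi-likelihood F test, with Benjamini-Hochberg adjustment over the 13705 genes tested and a threshold of 0.05. Fold changes are 96 h over 0 h, and errors of log2 fold changes are standard errors. Of all genes tested, 57.4% passed, 28.7% as higher and 28.8% as lower, with a median log2 fold change of 0.03. With scaling by library size only, that median shifted by -0.25, and every fold change below is relative to the TMM scale. The 96 h and 0 h values did not overlap for 64.1% of all genes tested, and for 32.4% every 96 h library was the higher.

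Both ribosomal RNAs were higher at 96 h. The small-subunit rRNA, mt-Rnr1 (12S), had 40810, 39906 and 35507 CPM in the 96 h libraries, against 29464, 25225 and 25705 CPM in the 0 h libraries. Its log2 fold change was 0.53 ± 0.06 (edgeR adjusted p = 6.47e-06). The large-subunit rRNA, mt-Rnr2 (16S), had 68685, 64483 and 59147 CPM in the 96 h libraries, against 52129, 43977 and 44967 CPM in the 0 h libraries. Its log2 fold change was 0.45 ± 0.06 (edgeR adjusted p = 4.56e-05), and with scaling by library size only it was 0.19 and did not pass (edgeR adjusted p = 0.0511). The groups did not overlap for either rRNA, and within each group replicate 1 was the highest library for both. Per kilobase of annotated length the levels of both were close, at 40566 ± 2971 CPM per kb for mt-Rnr1 and 40521 ± 3022 for mt-Rnr2 at 96 h, and 28061 ± 2430 and 29725 ± 2812 at 0 h. Libraries were depleted of ribosomal RNA. Whether that step also removes mitochondrial rRNA is not given in the sources used here, so these levels are those left after depletion.

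The balance of the rRNAs and of rRNA to mRNA, which no scaling factor touches, also differed. Counts of mt-Rnr2 were 1.68, 1.62 and 1.67 times those of mt-Rnr1 in the 96 h libraries, against 1.77, 1.74 and 1.75 times in the 0 h libraries (exact permutation p = 0.1, the smallest possible). The ratio of the means was 0.944. Mitochondrial rRNA held 4.95 ± 0.12 counts per count of mitochondrial mRNA at 96 h and 5.88 ± 0.37 at 0 h, and the groups did not overlap. Divided by the same mRNA sum, 71% of all genes tested did not overlap. Both ratios are those left after depletion of ribosomal RNA, and the part of that step in them was not tested.

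All 13 mRNAs rose, where 28.7% of all genes tested were called higher, and for all 13 every 96 h library was above every 0 h library. Their log2 fold changes ran from 0.35 for ND5 to 0.95 for ND2, with a median of 0.81, and their edgeR adjusted p from 6.74e-08 to 0.00366. With scaling by library size only the median was 0.55 and 12 of the 13 were called higher. Within the groups the libraries differed in the same direction for most mRNAs. At 0 h replicate 1 was the highest library for 13 of 13 and replicate 2 the lowest for 11, and at 96 h replicate 1 was the highest for 10 and replicate 3 the lowest for 11.

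**Figure D2:**
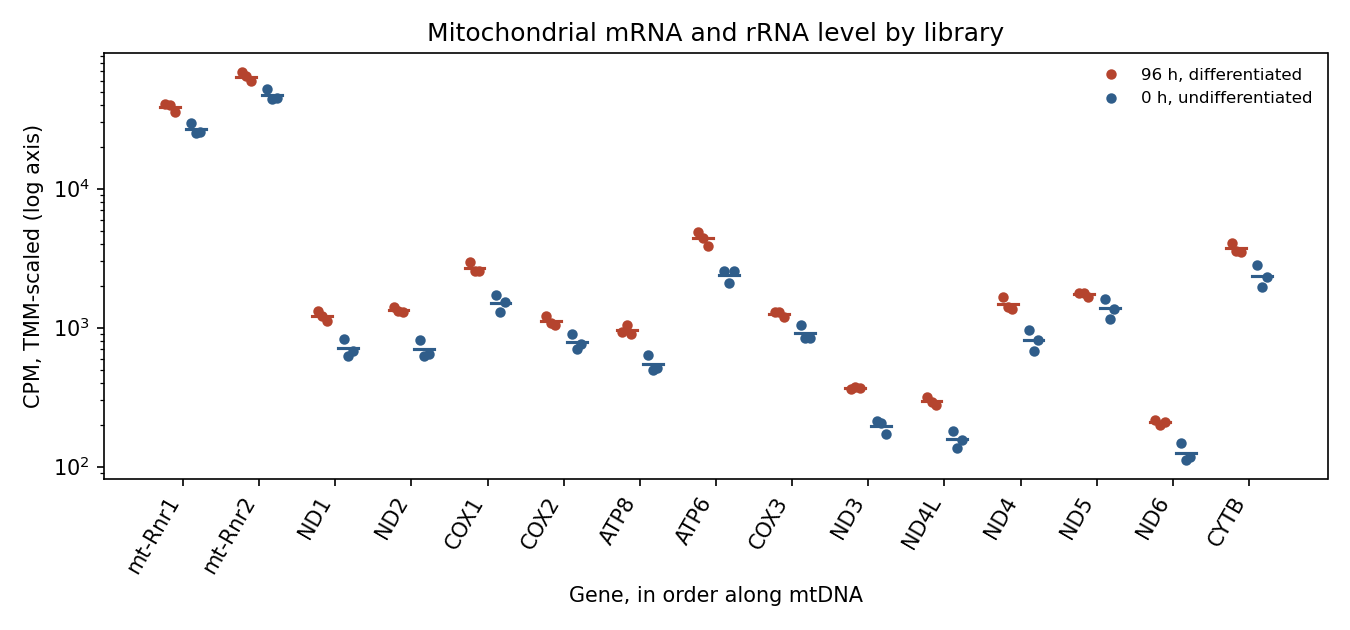
Level of each mitochondrial rRNA and mRNA in each library (CPM, TMM-scaled, log axis), 96 h left of 0 h, in order along mtDNA. Points are libraries and lines are means of 3. The 96 h points lie above the 0 h points for all 15 genes, from a 1.27-fold rise of ND5 to a 1.93-fold rise of ND2.

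Complex I, the NADH dehydrogenase that feeds electrons into the respiratory chain, has 7 mitochondrially encoded subunits, and these included both the largest and the smallest rise. ND2 had 1418, 1310.2 and 1307 CPM in the 96 h libraries, against 821, 624 and 650.1 CPM in the 0 h libraries (log2 fold change 0.95 ± 0.08, edgeR adjusted p = 3.00e-07). ND1, its neighbour upstream, had 1313, 1210.4 and 1108 CPM at 96 h, against 824, 626 and 675 CPM at 0 h (0.77 ± 0.09, a 1.71-fold rise). ND3 had 360.1, 374 and 369 CPM at 96 h, against 212, 208 and 172 CPM at 0 h (0.90 ± 0.07). ND3 had the tightest 96 h libraries of the 13, with a SD of 7.16 CPM around 368 CPM.

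ND4L and ND4 are made as a single mRNA that carries both reading frames, and their changes were alike, at 0.91 ± 0.08 for ND4L and 0.86 ± 0.10 for ND4. ND4L had 319, 294 and 279 CPM in the 96 h libraries, against 181, 136 and 156 CPM in the 0 h libraries. ND4 had 1661, 1402 and 1373 CPM in the 96 h libraries, against 957, 679 and 813 CPM in the 0 h libraries. In both, the libraries of a group kept the same order.

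ND5, the longest of the mRNAs, rose least. It had 1791, 1785 and 1673 CPM in the 96 h libraries, against 1611, 1154 and 1367 CPM in the 0 h libraries, a log2 fold change of 0.35 ± 0.09 (edgeR adjusted p = 0.00366). Its highest 0 h library, replicate 1, lay close below its lowest 96 h library. With scaling by library size only ND5 had a log2 fold change of 0.09 and did not pass (edgeR adjusted p = 0.382). ND6 is the only mRNA on the strand opposite to the rest. It had 216, 198 and 211 CPM in the 96 h libraries, against 148, 112 and 117 CPM in the 0 h libraries (log2 fold change 0.73 ± 0.08), inside the range of the mRNAs on the other strand. The annotated ends of ND5 and ND6 overlap on opposite strands, and although the kit is stranded, the strand setting of the counting is not given in the sources used here, so reads of that overlap cannot be told apart.

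CYTB encodes cytochrome b, the only mitochondrially encoded subunit of complex III. It had 4074, 3587 and 3500 CPM in the 96 h libraries, against 2827, 1973 and 2307 CPM in the 0 h libraries (0.65 ± 0.10, a 1.57-fold rise). The mRNAs of complex IV, cytochrome c oxidase, did not move by equal amounts. COX1, the subunit with the oxygen-reducing centre, had 2958, 2545 and 2544 CPM at 96 h, against 1723, 1295 and 1522 CPM at 0 h (0.83 ± 0.09). COX2 had 1218, 1075 and 1042 CPM at 96 h, against 903, 705 and 759 CPM at 0 h (0.49 ± 0.08). COX3 had 1289.6, 1299 and 1193 CPM at 96 h, against 1046, 849 and 848 CPM at 0 h (0.46 ± 0.07). COX2 and COX3 therefore stood with ND5 and the rRNAs at the low end, 1.38-fold to 1.408-fold higher, while COX1 was 1.77-fold higher.

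ATP8 and ATP6, subunits of the membrane part of ATP synthase, are also read from a single mRNA, and their reading frames share 43 bases. ATP6 had 4907, 4409.9 and 3852 CPM in the 96 h libraries, against 2576, 2112 and 2546 CPM in the 0 h libraries (log2 fold change 0.86 ± 0.08). ATP8 had 924, 1037 and 907 CPM in the 96 h libraries, against 633, 498 and 511 CPM in the 0 h libraries (0.81 ± 0.08). The shared stretch, taken from the GENCODE M21 transcripts (GRCm38, plus strand), is shown because reads inside it could have come from either gene, with the start codon of ATP6 and the stop codon of ATP8 in capitals.
ATP8 and ATP6 overlap: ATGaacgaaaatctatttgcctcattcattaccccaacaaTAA
The deposited counts of both genes differed from whole numbers by more than 0.01 in all 6 libraries. So did those of mt-Rnr2 and TrnM, and those of ND5 in 5 libraries and TrnY in 1, so this is not particular to the pair. ATP8 took 15.8%, 19.04% and 19.1% of the counts of the pair at 96 h, against 19.7%, 19.1% and 16.7% at 0 h. These shares overlapped between the groups (exact permutation p = 0.5). How reads of the shared stretch were divided was not tested, so the split of the pair is uncertain. Together they held 25.7% ± 1.0 of the counts of the 13 mRNAs at 96 h and 23.5% ± 1.2 at 0 h.

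Ordered by CPM per kilobase of annotated length, the mRNAs kept nearly the same order in both groups. ATP6 was highest, at 6446 ± 775 CPM per kb at 96 h and 3541 ± 381 at 0 h, followed by ATP8 at 4686 ± 347 and 2682 ± 364 and CYTB at 3252 ± 270.3 and 2071 ± 376. ATP8 was the more uncertain of these, because it is short and shares its reads with ATP6. At 96 h the libraries of these 3 mRNAs did not overlap each other or those of the next, and at 0 h ATP8 and CYTB overlapped. COX1, COX2 and COX3 came next, from 1608 ± 75 to 1736 ± 155 CPM per kb at 96 h and from 980 ± 138 to 1166 ± 145 at 0 h, with overlapping libraries. The complex I mRNAs other than ND6 ran from 959 ± 36 to 1296 ± 61 at 96 h and from 532 ± 77 to 755 ± 125 at 0 h. ND5 had the highest mean of these 6 at 0 h and the lowest at 96 h. ND6 was lowest of the 13, at 402 ± 18 CPM per kb at 96 h and 243 ± 37 at 0 h, clear of all others in both groups.

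The makeup of the mRNA pool, each mRNA as a share of the counts of all 13, shows the uneven change without any scaling. The 96 h and 0 h values of 8 of the 13 shares did not overlap, 5 of them higher at 96 h and 3 lower. When all genes tested were divided by the same mRNA sum, 71% did not overlap, so this count is no more than the background. ND5 had the largest loss of share, at 7.98%, 8.70% and 8.64% in the 96 h libraries, against 11.1%, 10.5% and 10.98% in the 0 h libraries. COX3 held 6.08% ± 0.30 at 96 h and 7.26% ± 0.46 at 0 h, and COX2 5.35% ± 0.10 and 6.26% ± 0.16 at 96 h and 0 h. The shares that were higher at 96 h were those of ND2 (6.48% ± 0.23 at 96 h and 5.53% ± 0.27 at 0 h), ND4 (7.11% ± 0.29 and 6.45% ± 0.23), ND4L (1.43% ± 0.01 and 1.25% ± 0.01), COX1 (12.9% ± 0.4 and 11.98% ± 0.2) and ND1 (5.82% ± 0.09 and 5.61% ± 0.16).

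The other shares overlapped, among them that of ND6, the marker of the opposite strand, at 0.963%, 0.964% and 1.09% in the 96 h libraries, against 1.03%, 1.02% and 0.944% in the 0 h libraries (exact permutation p = 0.8). Without 0 h replicate 3 or 96 h replicate 3 the difference in the ND6 share changed sign, so no direction is given. The 7 complex I mRNAs together held 32.1% ± 0.6 at 96 h and 32.3% ± 0.6 at 0 h, with overlapping libraries (exact permutation p = 0.7). Complex IV held 24.3% ± 0.4 at 96 h and 25.5% ± 0.4 at 0 h, without overlap. Across the 13 mRNAs, which share libraries and precursors, the log2 fold change had a Spearman rho of -0.32 with length, and across the 12 mRNAs of the plus strand a rho of -0.20 with order along mtDNA, both weak.

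**Figure D3:**
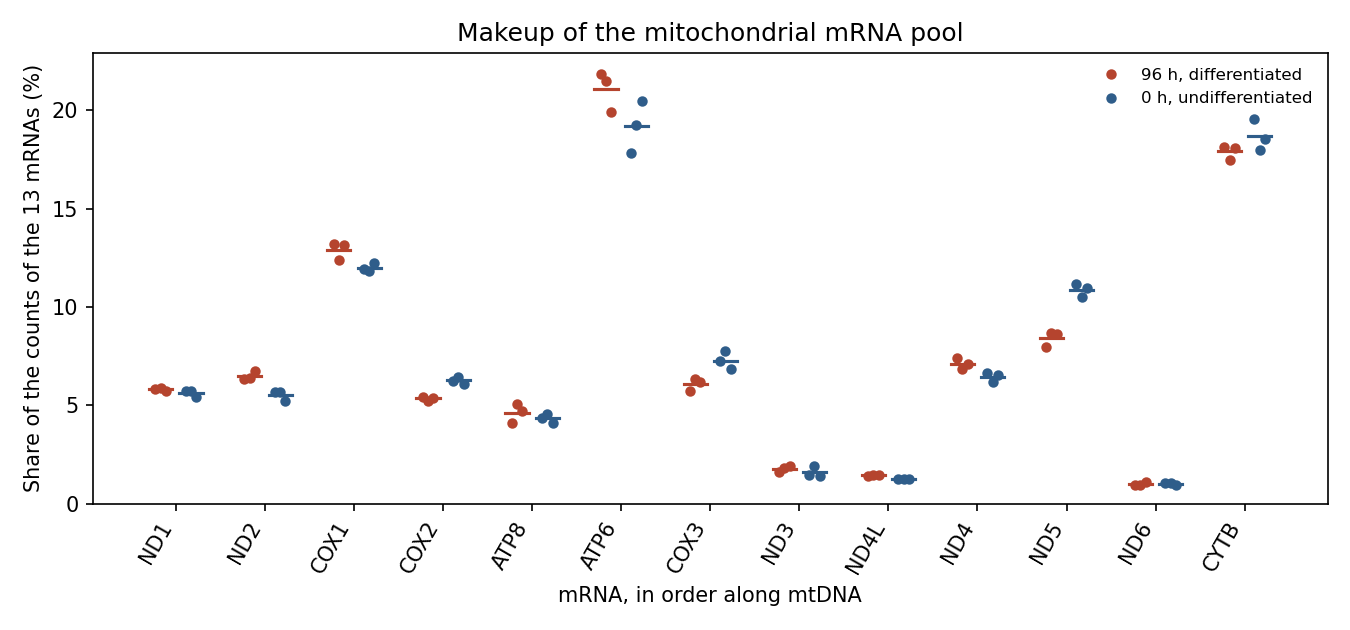
Share (%) of the counts of the 13 mitochondrial mRNAs held by each mRNA in each library, 96 h left of 0 h, on an axis that starts at 0. Points are libraries and lines are means of 3. ND5, COX2 and COX3 lie lower at 96 h, ND2 and ND4 higher, and the ND6 points overlap near 1%.

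The tRNA genes had the largest changes. Of the 22, 17 had enough counts to be tested and 15 were called higher. TrnI and TrnL2 did not pass (0.92 ± 0.58 and 1.18 ± 0.83, edgeR adjusted p = 0.194 and 0.240). The log2 fold changes of the 15 ran from 1.62 for TrnM to 3.02 for TrnS2. Of the 17 tested, 8 reached the filter only through the 96 h libraries, so that their calls add no support, which leaves TrnV, TrnM, TrnW, TrnA, TrnS1, TrnK, TrnG, TrnH and TrnP as the 9 that would also pass on the 0 h libraries alone, and all 9 rose, with a median log2 fold change of 2.12, where 26.7% of all 12399 genes that pass in this way were called higher. Fitted without the filter, 16 of the 22 were called higher, where 15.4% of all 26399 genes with at least 1 count were.

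The 4 called tRNA genes with the largest fold changes and TrnG, chosen for its abundance after the values were seen, are shown 5′ to 3′ as DNA letters, from the GENCODE M21 transcripts (GRCm38, mitochondrial chromosome), to show how short these RNAs are. TrnS2, TrnQ and TrnN are among the 8 that reached the filter only through the 96 h libraries, so their place at the top is no more than a description, and TrnW had the largest fold change of the 9 others. Capitals mark the anticodon, found as the middle of a loop of 7 bases closed by a stem with at least 3 of 5 pairs, that reads the codon of the named amino acid.
TrnS2, serine: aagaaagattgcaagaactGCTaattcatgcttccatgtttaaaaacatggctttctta
TrnQ, glutamine: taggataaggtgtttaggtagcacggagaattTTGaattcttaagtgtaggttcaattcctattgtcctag
TrnN, asparagine: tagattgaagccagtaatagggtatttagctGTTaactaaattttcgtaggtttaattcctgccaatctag
TrnW, tryptophan: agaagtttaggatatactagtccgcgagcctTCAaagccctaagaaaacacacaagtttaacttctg
TrnG, glycine: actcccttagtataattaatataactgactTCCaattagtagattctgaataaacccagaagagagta
At 59 to 75 bases for all tRNA genes tested, these are the shortest members, and whether mature tRNA or pieces of longer precursors gave the counts cannot be told apart.

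TrnG was the only abundant member of the class and held 76.0% ± 0.9 of tRNA counts at 96 h and 77.9% ± 3.2 at 0 h, with overlapping libraries. It had 812, 1034 and 759 CPM in the 96 h libraries, against 172, 187 and 239 CPM in the 0 h libraries, a 4.36-fold rise (log2 fold change 2.12 ± 0.12, edgeR adjusted p = 5.25e-09). Per kilobase TrnG reached 12766 ± 2152 CPM per kb at 96 h and 2929 ± 516 at 0 h, against at most 1065 and 195 for any other tRNA, and at 96 h it stood above every mRNA. Its neighbours on the precursor, COX3 and ND3, had 1608 ± 75 and 1057 ± 21 CPM per kb at 96 h. These comparisons with mRNAs are uncertain, because TrnG is 68 nt long and the shortest mRNA, ATP8, 204 nt. Without TrnG the tRNA share was 0.0252% ± 0.0050 at 96 h and 0.00616% ± 0.0014 at 0 h, a 4.09-fold higher mean, so the rise of the class did not rest on it.

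TrnW had 60.4, 87.1 and 66.6 CPM in the 96 h libraries, against 7.85, 10.7 and 11.96 CPM in the 0 h libraries, a 7.01-fold rise (2.81 ± 0.15, edgeR adjusted p = 2.78e-09). TrnN had 8.13, 8.82 and 5.18 CPM at 96 h, against 0.465, 1.49 and 0.993 CPM at 0 h (2.87 ± 0.34, edgeR adjusted p = 7.18e-06). TrnQ had 2.13, 2.16 and 2.23 CPM at 96 h, against 0.207, 0.383 and 0.209 CPM at 0 h (2.97 ± 0.42, edgeR adjusted p = 3.92e-05). TrnS2 had 5.53, 8.30 and 6.01 CPM at 96 h, against 0.258, 1.23 and 0.888 CPM at 0 h (3.02 ± 0.37, edgeR adjusted p = 1.01e-05). The groups were apart for all 4, but only TrnW of these had more than 2 CPM in every 0 h library. The 11 other tRNA genes that rose had means of 1.26 to 868 CPM at 96 h and 0.281 to 199 CPM at 0 h, TrnG included. TrnD, the lowest of them, lost its call without 96 h replicate 2 (log2 fold change 1.95, edgeR adjusted p = 0.0543).

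tRNA genes of both strands rose. Of the 9 that pass on the 0 h libraries alone, 3 lie on the minus strand, which also carries ND6, with log2 fold changes from 1.94 to 2.59, and 6 on the plus strand, from 1.62 to 2.81, so the ranges overlapped. The 5 tRNA genes removed by the filter had few counts in both groups. TrnF had 27 counts over the 96 h libraries and 30 over the 0 h libraries, TrnT 19 and 18, TrnC 7 and 5, and TrnR 9 and 1, and fitted without the filter none of these 4 passed (edgeR adjusted p = 0.160 to 0.872). TrnY, with 34 counts at 96 h and 8 at 0 h, was called higher in that fit (2.32, edgeR adjusted p = 0.0182), whose p-values are not on the scale of the main fit. TrnF lies at the start of the precursor, ahead of mt-Rnr1 and TrnV, and was listed at 6 to 21 counts in every library but 0 h replicate 3, which had 3, while TrnV next to mt-Rnr1 had 550 to 865 counts at 96 h and 108 to 191 at 0 h.

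**Figure D4:**
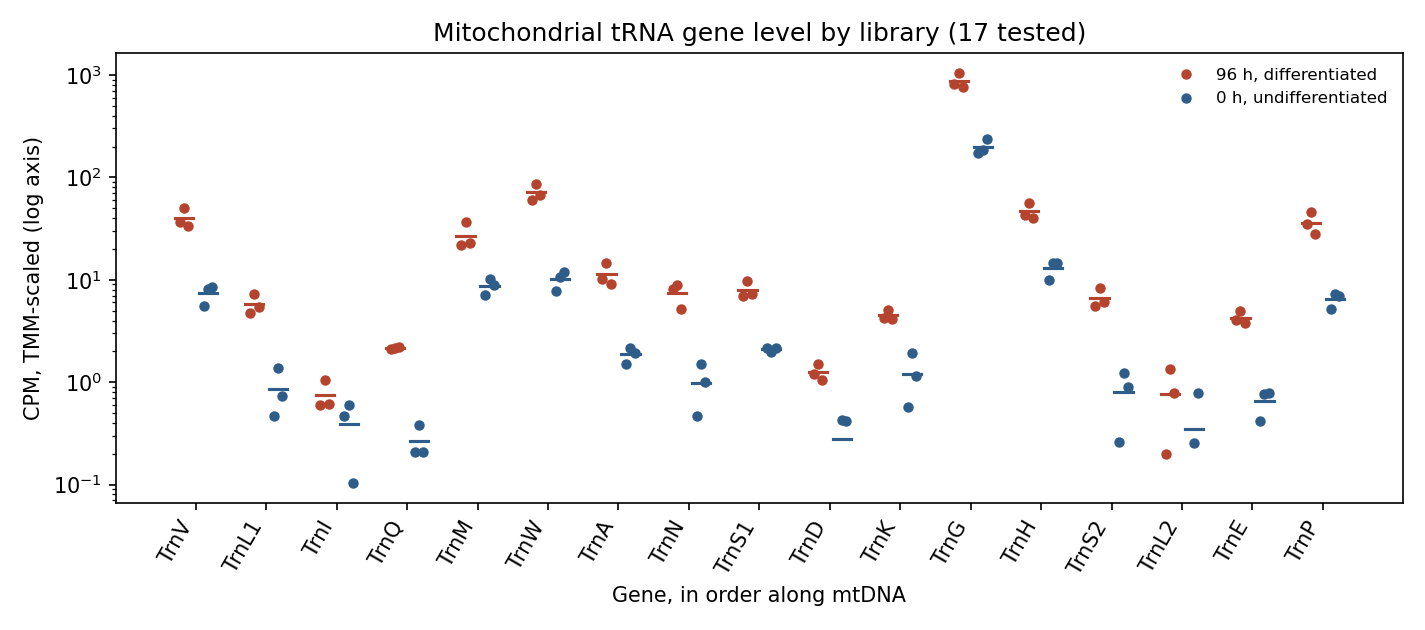
Level of the 17 tested mitochondrial tRNA genes in each library (CPM, TMM-scaled, log axis), 96 h left of 0 h, in order along mtDNA. Points are libraries and lines are means of 3, and libraries at 0 counts (0 h replicate 1 for TrnD and TrnL2) are in the mean but not drawn. TrnG stands far above the rest in both groups, and the groups overlap for TrnL2.

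Counts of the tRNA genes were also higher at 96 h per count of the mRNAs of the same precursors. There were 0.0471, 0.0671 and 0.0515 tRNA counts per mRNA count in the 96 h libraries, against 0.0148, 0.0230 and 0.0242 in the 0 h libraries, a 2.68-fold higher mean without overlap. Of all genes tested, 71% did not overlap when divided by the same mRNA sum. Without TrnG the ratio of tRNA to mRNA counts was 0.0133 ± 0.0030 at 96 h and 0.00462 ± 0.0015 at 0 h, 2.89-fold higher. The libraries of a group were ordered differently for the 2 classes. At 0 h replicate 1, the highest library for every mRNA, was the lowest for 15 of 17 tRNA genes, and at 96 h replicate 2 was the highest for 16 of 17 tRNA genes and replicate 1 for 10 of 13 mRNAs.

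Short RNAs from the nucleus moved with the tRNA genes. Of 213 tested nuclear structural RNA genes under 200 nt (small nucleolar, small nuclear, transfer and similar RNAs by RefSeq biotype), 194 (91.1%) were called higher, with a median fold of 4.73, and of the 85 under 100 nt 74 (87.1%) were called higher, with a median fold of 4.09. Among genes that pass the filter on the 0 h libraries alone, 96 of 99 under 200 nt and 43 of 44 under 100 nt were called higher, with median folds of 4.16 and 4.002, and the 9 mitochondrial tRNA genes had a median fold of 4.36. Counts of mitochondrial tRNA genes per count of these short nuclear RNAs were 0.212, 0.234 and 0.218 in the 96 h libraries, against 0.224, 0.198 and 0.222 in the 0 h libraries, and overlapped (0.221 ± 0.012 at 96 h and 0.214 ± 0.014 at 0 h, exact permutation p = 0.6). The short nuclear RNAs also took their largest 96 h share in replicate 2 (0.530%) and their smallest 0 h share in replicate 1 (0.105%), as the tRNA genes did. Recovery of short RNA was not measured, and its part in the rise of the tRNA genes was not tested. Nuclear protein-coding genes had a median log2 fold change of -0.02, with 27.1% of 11784 called higher.

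**Figure D5:**
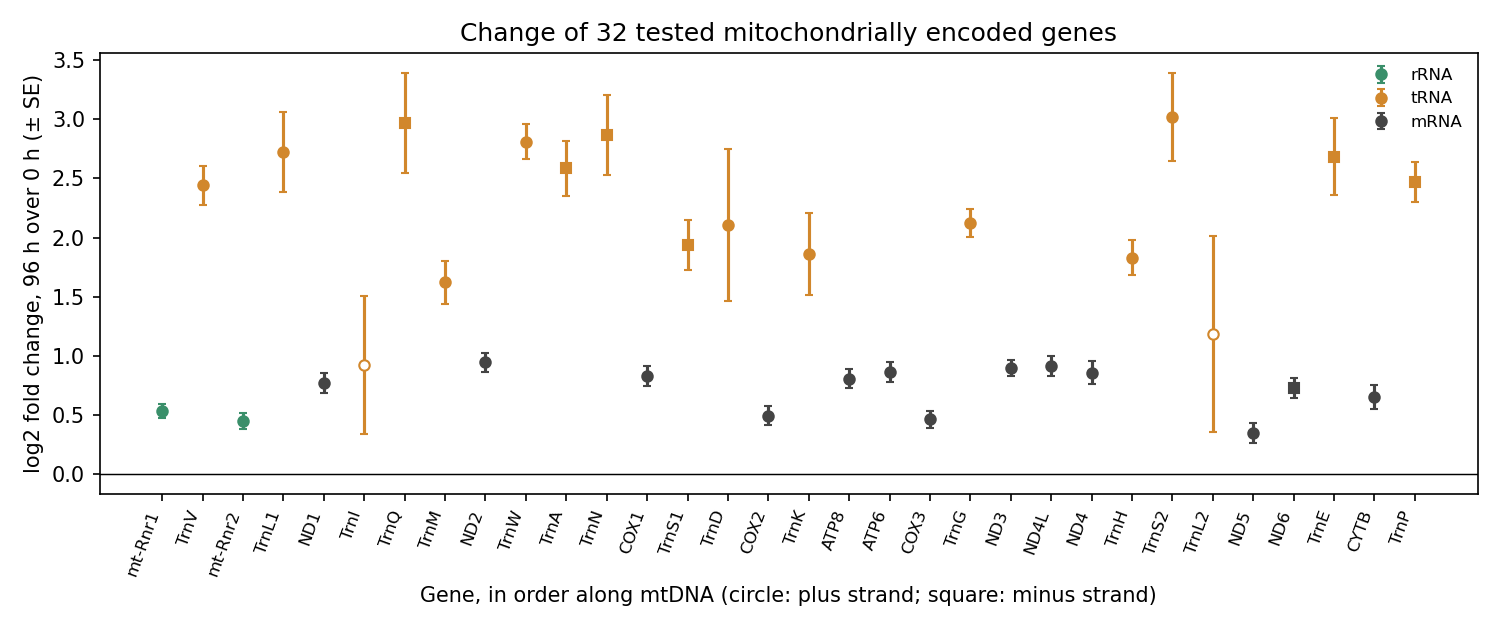
log2 fold change, 96 h over 0 h, with its standard error, for the 32 mitochondrially encoded genes tested, in order along mtDNA. Circles are genes of the plus strand, squares of the minus strand, colour gives the class, and open symbols did not pass. The rRNAs and mRNAs lie between 0.35 and 0.95. The 9 tRNA genes that pass the filter on the 0 h libraries alone lie from 1.62 to 2.81, also where they stand between mRNAs on the map. The 8 tRNA genes that reached the filter only through the 96 h libraries lie from 0.92 to 3.02. Of these, TrnI (0.92) lies inside the range of the mRNAs, and TrnI and TrnL2 (1.18) did not pass.

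The nuclear genes that express and maintain mitochondrial DNA did not rise as a group. Of a list of 76 symbols, 74 were tested, and 13 (17.6%) were called higher and 24 (32.4%) lower, against 28.7% and 28.8% of all genes, with a median log2 fold change of 0.01. Scaled by library size alone the list gave 8 higher and 32 lower, and upper-quartile factors gave 18 and 21. Of the 10 transcription genes 3 were lower and the other 7 did not pass. Polrmt, the RNA polymerase, had 24.5, 23.7 and 23.3 CPM at 96 h, against 27.7, 25.9 and 27.5 CPM at 0 h (-0.18 ± 0.07, edgeR adjusted p = 0.0478). That call was lost with upper-quartile factors, with either other filter, with DESeq2, with limma-voom, with a replicate block (adjusted p = 0.0687) and when any library other than 0 h replicate 2 was left out. Tfb2m, which opens the promoter, was lower (-0.32 ± 0.10, adjusted p = 0.0116), a call lost with upper-quartile factors (0.05002) and without 96 h replicate 3 (0.0632). Tfam, which packages mtDNA and activates its promoters, had -0.08 ± 0.10 and did not pass, but was lower without 96 h replicate 3 (-0.23, edgeR adjusted p = 0.0311) and when scaled by library size alone (-0.32, 0.0315), while upper-quartile factors put it at 0.01. Mrpl12, a ribosomal protein also reported to bind the polymerase, was lower (-0.78 ± 0.07).

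Of 8 tested genes that cut and finish the precursor, 3 (37.5%) were higher and 4 (50%) lower, against 28.7% and 28.8% of all genes. Hsd17b10, a subunit of mitochondrial RNase P, which cuts the 5′ end of tRNAs, had 21.2, 22.9 and 21.1 CPM at 96 h, against 9.76, 9.33 and 9.14 CPM at 0 h (1.21 ± 0.10, a 2.31-fold rise). Of its partners, the methyltransferase subunit Trmt10c had 19.1, 19.7 and 18.7 CPM at 96 h, against 28.8, 30.2 and 26.6 CPM at 0 h (-0.58 ± 0.08, edgeR adjusted p = 3.15e-05), and the nuclease subunit Prorp had 0.05 ± 0.18 and did not pass (adjusted p = 0.825). Elac2, which cuts the 3′ end, had 28.8, 27.9 and 30.9 CPM at 96 h, against 40.5, 43.1 and 43.7 CPM at 0 h (-0.54 ± 0.07), and Tbrg4 (FASTKD4), a regulator of mitochondrial mRNA levels, was also lower (-0.74 ± 0.06). Angel2, an RNA end-processing enzyme, was higher (0.45 ± 0.08), a call lost with library size only (0.19, edgeR adjusted p = 0.0630).

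Of 12 stability and turnover genes 4 (33.3%) were lower and 1 (8.33%) was higher, against 28.8% and 28.7% of all genes. Lrpprc, which stabilises the mRNAs of the plus strand, was lower (-0.30 ± 0.05), and its partner Slirp had 0.00 ± 0.14 and did not pass. Pde12, which removes poly(A) tails, was lower (-0.51 ± 0.09). Trnt1, which adds the CCA end to tRNAs, rose (0.33 ± 0.06), but did not pass when scaled by library size alone (0.08, edgeR adjusted p = 0.419). Of 21 modification genes 3 (14.3%) were higher and 4 (19%) lower, both below the shares of all genes. Gtpbp3 (0.78 ± 0.15) and Nsun3 (0.94 ± 0.19), which modify the anticodon of some mitochondrial tRNAs, rose, and Nsun2 (-0.29 ± 0.05) and Mettl17 (-1.11 ± 0.27) fell.

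Of 16 genes of mtDNA replication and its nucleotide supply 6 (37.5%) were higher and 3 (18.8%) lower, against 28.7% and 28.8% of all genes. The smallest adjusted p among the higher ones were those of the pyrimidine nucleotide carriers Slc25a33 (1.05 ± 0.07) and Slc25a36 (0.70 ± 0.10). Polg, the catalytic subunit of the mtDNA polymerase, had 20.4, 20.6 and 16.98 CPM at 96 h, against 28.6, 28.7 and 23.1 CPM at 0 h (-0.47 ± 0.10, edgeR adjusted p = 0.00154). Dna2 (-1.40 ± 0.11) and Lig3 (-0.51 ± 0.07), which also serve the nucleus, were lower. The 8 nuclear regulators of mitochondrial biogenesis were the part of the list with most falls. Of the 7 tested, 6 (85.7%) were lower, against 28.8% of all genes. Among these 6 were the coactivator Ppargc1b (-1.14 ± 0.09) and Gabpb1 (-1.14 ± 0.09), a subunit of the respiratory factor NRF-2. Esrra, a nuclear receptor, did not pass. Ppargc1a (PGC-1alpha), the best-known coactivator, stayed at or below 0.104 CPM in every library and was not tested.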

How the data were processed

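Total RNA of 6 libraries was depleted of ribosomal RNA and sequenced in pairs with a stranded kit, per the labels' protocols. The authors deposited estimated counts per gene, and the submitters' processing notes name FastQC 0.12.1, Salmon 1.10.1, DESeq2 1.52.0 and mm39, without roles. No source used here gives the annotation or the strand setting. RefSeq (GRCm38.p6) and GENCODE M21 gave names, lengths, strands and sequences but no coordinates, because their build differs from mm39. The counts were rounded to whole numbers, filtered with filterByExpr, scaled with TMM factors and tested with edgeR 4.0.16 (R 4.3.3), glmQLFit and glmQLFTest, on 13705 genes with Benjamini-Hochberg adjustment. Shares and ratios were taken from the deposited counts and compared with exact two-sided permutation tests, 19 as a family and 15 further shares, ratios and totals, and the p-values printed for them are unadjusted. The fit was tested on simulated data. Alternatives were library size only, DESeq2 size factors, upper-quartile factors, scaling without mitochondrial rows and Gm26917, no filter, at least 1 CPM in at least 3 libraries, DESeq2 1.42.0, limma-voom (limma 3.58.1), a replicate block and each library left out.

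The members, the nuclear list and the alternatives were chosen with earlier results of these data known. Named were all mRNAs and rRNAs, the 4 tRNA genes with the largest rise, 7 nuclear genes chosen for their role, and in each part of the nuclear list up to 2 higher and 2 lower genes with the smallest adjusted p. The other tRNA genes named, and Esrra, Trmt10c and Prorp, were chosen after their values were seen. The list holds Fastkd4 and Tbrg4, which are names of a single gene, and the table has Tbrg4 only. Replicates of a group differed by more than sampling noise (chi-square of 6.32 to 12.9 per degree of freedom). Marker sums were low but higher at 96 h in every library. They were 10.5 to 12.2 CPM at 96 h and 4.28 to 4.77 CPM at 0 h for fibroblasts (Lum at 0). For glia they were 8.80 to 10.5 and 2.35 to 4.90 CPM, and for immune cells 2.57 to 3.12 and 1.62 to 2.17 CPM. Each sum rested largely on 1 gene, Pdgfra (7.96 CPM at 96 h and 2.58 at 0 h), Erbb3 (8.28 and 3.22) and Cd3e (2.66 and 1.80). Only 2 of 5 fibroblast, 1 of 5 glial and 1 of 4 immune genes averaged over 1 CPM in either group. Col1a2 was lower at 96 h (0.119 and 0.302 CPM), so the sums do not show a rise of whole lists. The part of these markers in the results was not tested. The other neuroblast markers are not reported here.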

Additional observations from a re-analysis of the deposited data

How the results depend on the processing

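Among the refits of single members under the alternatives, 475 kept their direction and their side of the threshold, none reversed, and 3 lost their call, which were mt-Rnr2 and ND5 with library size only and TrnD without 96 h replicate 2. With library size only, 1 of the 2 rRNAs and 8 genes of the nuclear list were called higher, against 2 and 13 with TMM factors, and over all genes 2409 were higher and 5849 lower, against 3927 and 3942. The cause was not tested, but the median of all genes moved by -0.25 in that setting. With each library left out in turn, 13 mRNAs, 14 to 16 tRNA genes, 2 rRNAs and 10 to 14 genes of the nuclear list were called higher. The log2 ratio of the mean ND6 shares of the mRNAs ran from -0.0495 to 0.0423 and changed sign without replicate 3 of either group. Slirp, near 0, changed sign with library size only (-0.25), DESeq2 size factors (-0.0039), scaling on nuclear rows without Gm26917 (-0.0034), no filter (-0.0365) and the DESeq2 test (-0.0038), and when single libraries were left out it ran from -0.15 to 0.11. Tfam changed sign with upper-quartile factors (0.0053). Libraries with the same replicate number did not deviate together (correlations of -0.01, 0.01 and -0.0050, and 2 of 6 libraries correlated best with their own number), so the numbers were not taken as pairs. A replicate block gave 13 mRNAs, 15 tRNA genes and 2 rRNAs higher, and 3854 genes higher and 3858 lower. Leaving out TrnG, as in the report, and the following alternative were chosen after seeing the data. Counting only genes that pass the filter on the 0 h libraries alone, 9 tRNA genes were called higher, because only 9 are then counted. Of the 22 tRNA genes, 15 were at or under 10 CPM at 96 h, so depth limits most of the class.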
